A study of Mus musculus with 18 samples.

Results

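Fos and 9 other immediate early genes (Fosb, Jun, Junb, Atf3, Egr1, Klf4, Ier2, Zfp36 and Dusp1) were followed over an allelic series of Tbx1 in mouse embryos, to ask whether Fos moves with its family or alone. The genes were taken by name, with each probe set that the array annotation gives to one of them. They are 10 of the 18193 genes on the array and have 12 of its 45037 probe sets, since Jun and Klf4 have 2 each and the other genes 1. RNA of 18 whole embryos at embryonic day 9.5, on a mixed background of 129SvEv and C57Bl/6, was measured on Affymetrix mouse genome arrays from 6 ug of RNA, with 1 embryo on an array. Of the 9 genotypes, -/-, Neo/Neo, Neo2/-, Neo2/Neo and Neo2/Neo2 carry 0 wild-type alleles of Tbx1, +/-, Neo/+ and Neo2/+ carry 1, and WT is Tbx1+/+. The allele written as - is null, and Neo and Neo2 are previously described alleles that lower the dosage of this T-box transcription factor. Each genotype has 2 embryos, called biological replicates in the labels, and the 8 mutant genotypes together hold 16 arrays against 2 of WT.

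Immediate early genes are transcribed within minutes of a stimulus, such as a growth factor or a stress, without the need for new protein. Signals that reach their promoters through MAP kinases, serum response factor and CREB switch on transcription factors of the AP-1 family, among them Fos, Fosb, Jun, Junb and Atf3, and of the zinc finger families of Egr1 and Klf4. They also switch on the proteins that end the response: Dusp1, a phosphatase that inactivates MAP kinases, and Zfp36 (tristetraprolin), which binds AU-rich elements and hastens the decay of mRNAs. Fos proteins bind DNA as dimers with Jun proteins. After a stimulus the mRNAs of these genes often rise and fall together.

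The promoters of the genes on which the results turn are shown with motifs of that shared input that lie close to the start. Fos is the gene that differed from WT, Zfp36 had the highest correlation with it, and Fosb with Atf3 and Jun with Dusp1 are the pairs that varied together. The windows are the 250 bases upstream of the RefSeq start on mouse GRCm38.p6, written 5′ to 3′ on the strand of the gene, and 8 of the 10 genes had one. No window was at hand for Egr1 and Ier2. Capitals mark matches to the cAMP response element TGACGTCA or its TGACG core on either strand, the Egr motif GCGNGGGCG on either strand, the CArG box of serum response factor on either strand, and TATAAA on the gene's strand. A TGACG inside a TGACGTCA is the same site.
Fos (chr12:85473640-85473889, plus strand): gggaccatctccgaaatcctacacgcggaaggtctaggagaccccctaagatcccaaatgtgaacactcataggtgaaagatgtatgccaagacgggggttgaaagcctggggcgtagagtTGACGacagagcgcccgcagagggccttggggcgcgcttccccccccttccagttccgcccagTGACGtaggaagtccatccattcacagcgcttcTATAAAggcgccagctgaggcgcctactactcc
Fosb (chr7:19310046-19310295, minus strand): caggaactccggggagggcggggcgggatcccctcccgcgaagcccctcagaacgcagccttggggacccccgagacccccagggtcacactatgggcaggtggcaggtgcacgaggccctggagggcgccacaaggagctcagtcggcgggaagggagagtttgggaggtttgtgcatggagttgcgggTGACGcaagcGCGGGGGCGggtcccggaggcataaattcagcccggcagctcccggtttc
Atf3 (chr1:191183334-191183583, minus strand): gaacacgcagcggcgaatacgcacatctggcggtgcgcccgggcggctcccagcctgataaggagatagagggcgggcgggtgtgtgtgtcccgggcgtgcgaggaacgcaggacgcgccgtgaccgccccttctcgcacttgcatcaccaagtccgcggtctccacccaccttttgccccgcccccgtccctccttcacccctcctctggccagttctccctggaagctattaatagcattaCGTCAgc
Jun (chr4:95052223-95052472, minus strand): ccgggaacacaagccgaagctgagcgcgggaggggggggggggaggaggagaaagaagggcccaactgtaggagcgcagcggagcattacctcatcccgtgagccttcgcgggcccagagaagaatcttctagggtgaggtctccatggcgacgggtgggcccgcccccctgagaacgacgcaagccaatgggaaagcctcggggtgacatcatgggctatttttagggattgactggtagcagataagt
Dusp1 (chr17:26508473-26508722, minus strand): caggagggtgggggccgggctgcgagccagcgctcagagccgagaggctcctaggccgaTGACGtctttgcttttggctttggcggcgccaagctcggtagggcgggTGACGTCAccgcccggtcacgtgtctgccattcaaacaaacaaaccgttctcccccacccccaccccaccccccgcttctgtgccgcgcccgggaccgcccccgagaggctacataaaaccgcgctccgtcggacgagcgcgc
Zfp36 (chr7:28379229-28379478, minus strand): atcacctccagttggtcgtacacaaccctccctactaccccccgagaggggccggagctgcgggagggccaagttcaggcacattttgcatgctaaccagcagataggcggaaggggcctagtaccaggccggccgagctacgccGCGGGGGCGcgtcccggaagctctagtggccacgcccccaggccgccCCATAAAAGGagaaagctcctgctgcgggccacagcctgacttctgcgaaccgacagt

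In these windows Fos had 2 TGACG matches, starting 129 and 66 bases before its start, and a TATAAA 33 bases before it. TGACG was found in 6 of the 8 windows, against 17.7% of the 32817 mouse promoter windows of the same length. The full TGACGTCA was found in Dusp1 alone of the 8 (1.55% of all windows), and the Egr motif in Fosb, Klf4 and Zfp36 (4.70% of all windows). Zfp36 held the only CArG box among them (1.47% of all windows) and Fos the only TATAAA (7.60%). The AP-1 motif TGANTCA and the T-box motif AGGTGTGA were searched on both strands and matched 0 of the 8 windows, against 6.75% and 1.12% of all windows. Jun had no match to any of these motifs. A match gives the letters in the window and not a bound site. Sequence outside the windows was not searched, and Egr1 and Ier2 had no window. A motif without a match here, such as the CArG box in Fos, may thus lie farther upstream.

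The deposited values are log2 signals after RMA, and differences below are on that scale, mutant minus WT, unless a fold is named. No detection call comes with them, so background and a faint transcript look alike, and array medians lay between 5.73 and 5.94. The Tbx1 signal was 4.98 and 5.16 in -/- and 5.04 and 5.20 in Neo/Neo, 5.65 and 5.67 in Neo2/Neo, 5.62 and 5.81 in Neo2/-, and 6.54 and 6.63 in WT. Where its probe set lies against the part removed in the null allele is not known here, so the signal in carriers of that allele need not follow dosage. The arrays labelled Neo2/Neo2 lay at 6.62 on both arrays, at the WT level. Whether this allele leaves so much transcript or the label is at fault was not tested, and Neo2/Neo2 below means the arrays labelled so. The arrays of -/- replicate 1 and of +/- replicate 1 were unlike the rest, with median correlations to other arrays of 0.985 and 0.975 against 0.991 to 0.995, and are called the 2 arrays that stood apart. By Xist and Y-linked probe sets, -/- and WT had female embryos and Neo/Neo and Neo2/Neo2 male ones, while in each of the remaining 5 genotypes 1 embryo was female and 1 male. Of 9 genes chosen to mark whole embryo tissues, 8 were used, and their summed linear signal was 2739 to 4783 in mutants and 3812 to 4144 in WT. In RNA of whole embryos, fewer cells that transcribe a gene and less RNA of it per cell cannot be told apart.

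Fos, the AP-1 subunit that pairs with Jun, had a signal of 4.93 and 4.77 in -/-, 5.05 and 4.96 in Neo/Neo, 4.77 and 4.79 in Neo2/-, 5.48 and 5.22 in Neo2/Neo, and 5.18 and 5.06 in Neo2/Neo2. In the genotypes with 1 wild-type allele it had 5.20 and 5.07 in +/-, 4.85 and 4.98 in Neo/+ and 4.80 and 4.89 in Neo2/+, and in WT it had 6.07 and 5.61. The mean Fos signal over the arrays was at the 40.5 percentile of probe sets, below the median of 5.8. Without a detection call, how much of the Fos signal is background is not known, and the folds below carry this limit. All 16 mutant arrays, of either sex and with 0 or 1 wild-type allele, lay below both WT arrays. Fos was the only one of the 12 probe sets for which this held, and 0.686% of all probe sets on the array had every mutant array below both WT arrays. None of the 12 had all mutant arrays above both WT arrays (0.815% of all probe sets).

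**Figure D1:**
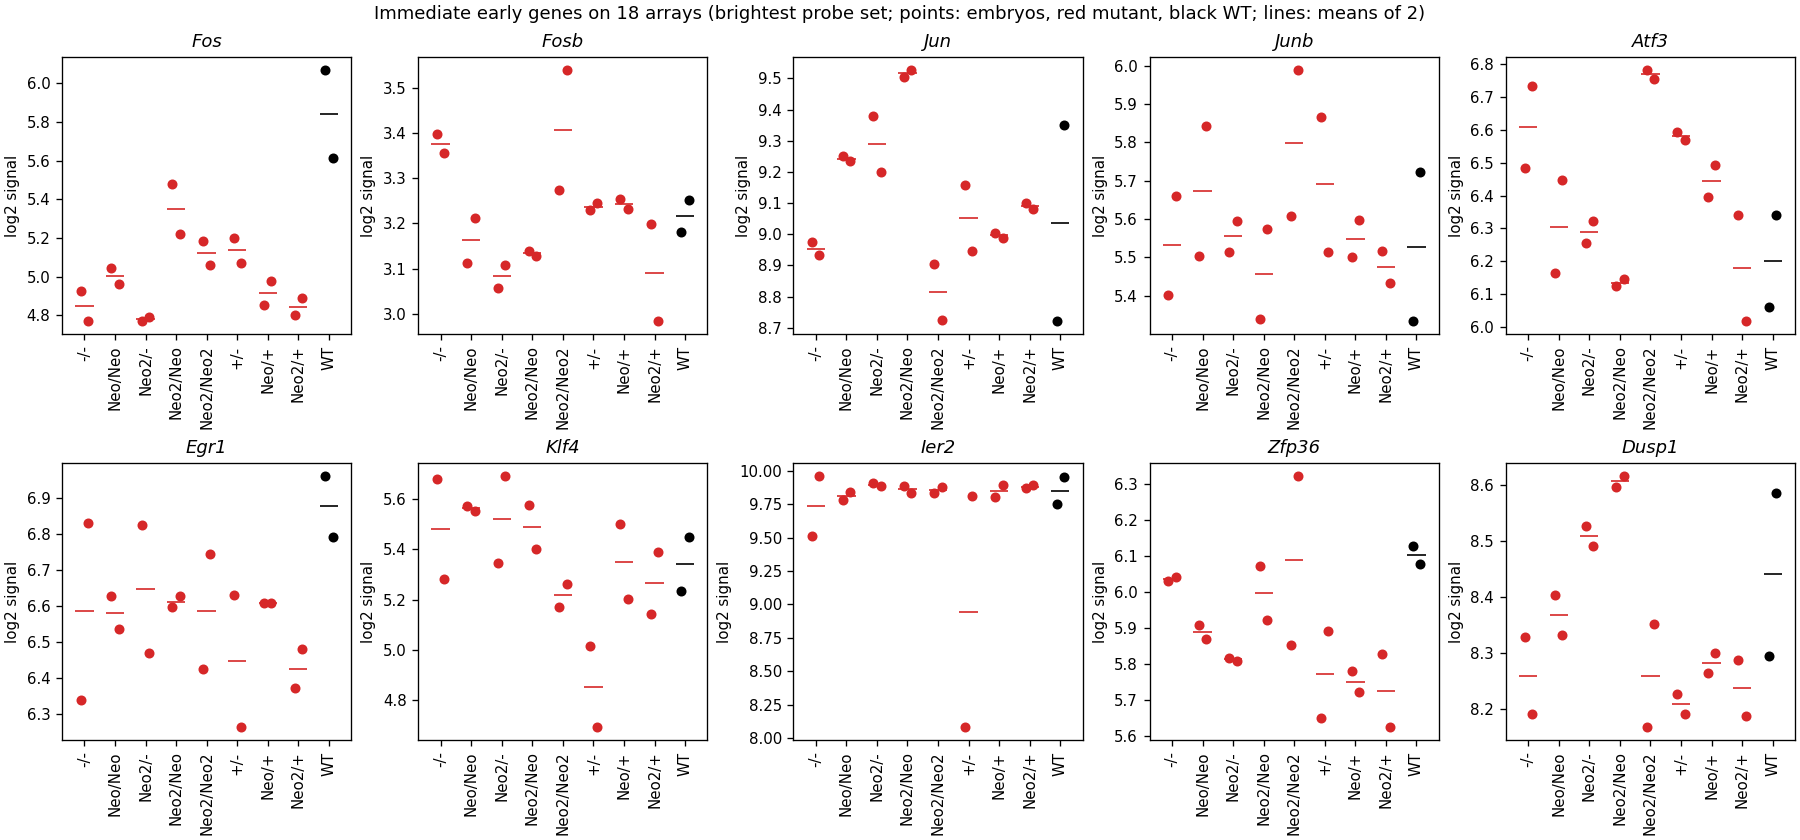
Log2 signal (vertical axes, a separate range for each gene) of the 10 immediate early genes by genotype (horizontal axes), at the brightest probe set of each gene. Red points are mutant embryos, black points WT embryos, and lines the mean of the 2 embryos of a genotype. The mutant Fos points lie between 4.77 and 5.48, below the WT points at 6.07 and 5.61, while the other 9 genes overlap between mutants and WT.

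Against WT, Fos fell by 0.99 in -/- (SE 0.14, 1.99-fold, n = 2 against 2, adjusted p = 0.0367 by limma over all probe sets). That comparison called 0.0311% of probe sets at an adjusted p under 0.05, and Fos was the only call among the 12 probe sets of the immediate early genes. The call was narrow. It was lost without WT replicate 1, with a difference of -0.76 and an adjusted p of 0.237. It was also lost without -/- replicate 1 (adjusted p = 0.0865 by limma) or without any array of Neo/Neo, Neo2/-, Neo2/Neo, Neo2/Neo2, Neo/+ or Neo2/+, which enter only through the estimate of the spread (adjusted p = 0.0550 to 0.0810). With embryo sex as a covariate the adjusted p was 0.0596 by limma. The difference of -0.99 could not change there, since the -/- and WT embryos were all female and sex enters only through the estimate of the spread.

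In the other genotypes the Fos differences were -0.84 in Neo/Neo, -1.06 in Neo2/-, -0.49 in Neo2/Neo, -0.72 in Neo2/Neo2, -0.70 in +/-, -0.93 in Neo/+ and -0.998 in Neo2/+, each with an SE of 0.14. In linear folds WT exceeded these mutants by 1.40 in Neo2/Neo up to 2.09 in Neo2/-. None of these 7 passed, with limma's adjusted p-values of 0.0616, 0.121, 0.592, 0.169, 0.323, 0.0505 and 0.361 in that order. The share of probe sets called was 0.0822% in Neo/Neo, 0.0311% in Neo/+, 0.00222% in Neo2/-, Neo2/Neo and Neo2/Neo2, and 0% in +/- and Neo2/+. The 8 comparisons share the 2 WT arrays, so they are not independent of each other. The labels name no litter, dissection or scan batch, so a batch that the 2 WT embryos might share and the WT genotype cannot be told apart. Without WT replicate 1, the higher one, the Neo2/Neo difference was -0.26. Fos passed in 6 of these 7 genotypes when WT replicate 2, the lower of the WT arrays, was left out (adjusted p = 0.00426 to 0.0484 by limma), which leaves a lone WT array that is assumed to vary like the other genotypes. It did not pass in Neo2/Neo there. It passed in Neo/+ without either +/- array (adjusted p = 0.0404) or either -/- array (adjusted p = 0.0466), and in +/- without +/- replicate 2 (difference -0.64, adjusted p = 0.0313), all by limma.

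Averaged over the 8 mutant genotypes, Fos was 5.0 in mutants and 5.84 in WT, a difference of -0.84 (SE 0.11, 95% interval -1.07 to -0.61, 1.79-fold). Its unadjusted p of 2.974e-06 by limma was the second smallest of all probe sets, but the adjusted p of 0.0670 did not pass. Only 0.00222% of probe sets were called in this comparison, which is 1 probe set, without a gene name. An exact two-sided permutation test of the Fos signal, 16 mutant against 2 WT arrays, gave p = 0.0131, the smallest value that the 153 ways to choose 2 of 18 arrays allow. This value follows from all mutant arrays lying below both WT arrays and adds nothing to that order. Each fully separated probe set reaches it, 0.686% of all with the mutants below and 0.815% with them above. The adjusted p by limma was 0.00446 without WT replicate 2 (difference -1.07), 1.00 without WT replicate 1 (difference -0.61), 0.0300 and 0.0132 without +/- replicate 1 or 2, and 0.0465 without -/- replicate 2. It was 0.0313 without both arrays that stood apart. With embryo sex as a covariate the difference was -0.80 and the adjusted p 0.264 by limma.

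**Figure D2:**
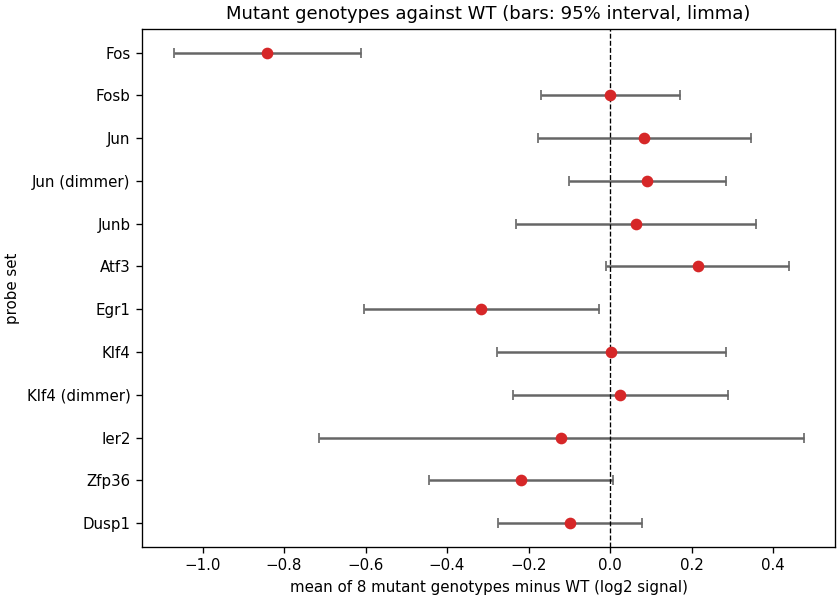
Difference between the mean of the 8 mutant genotypes and WT (horizontal axis, log2 signal, mutant minus WT) for the 12 probe sets (vertical axis), with limma's 95% intervals as bars and a dashed line at 0. Fos lies at -0.84 with an interval of -1.07 to -0.61, and the other 11 probe sets lie between -0.32 (Egr1) and 0.21 (Atf3).

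Among the mutants the order of the Fos means was not that of the Tbx1 dosage. In order of the mean, the genotypes were Neo2/- (4.78), Neo2/+ (4.84), -/- (4.85), Neo/+ (4.91), Neo/Neo (5.004), Neo2/Neo2 (5.12), +/- (5.14), Neo2/Neo (5.35) and WT (5.84). Neighbours among the mutants differed by 0.005 to 0.21, with an SE of 0.14 for each gap, and the step of 0.49 to WT was the widest of the 8. Neo2/+ embryos, with a Tbx1 signal of 6.59 and 6.50, thus had a Fos signal next to that of -/- embryos. The Fos difference between 0 and 1 wild-type allele was 0.06 (SE 0.11, n = 10 against 6, adjusted p = 0.947 by limma), and that between 1 and 2 was -0.88 (SE 0.17, n = 6 against 2, adjusted p = 0.320). Both fits called 0% of probe sets, and the second reached an adjusted p of 0.0422 by limma without WT replicate 2 (difference -1.11). The slope of Fos on the Tbx1 signal was 0.18 (SE 0.12, adjusted p = 0.630 by limma), in a regression that called 0% of probe sets.

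With an F-test across the 9 genotypes limma called Fos (adjusted p = 0.0488 by limma) and none of the other 11 probe sets, where 0.275% of probe sets were called. Among the 8 mutant genotypes alone, Fos had an adjusted p of 0.273, with 0.309% of probe sets called. The first of these calls was lost without WT replicate 1 or without an array of Neo/Neo, Neo2/-, Neo2/Neo, Neo2/Neo2, Neo/+ or Neo2/+ (adjusted p = 0.0756 to 0.117 by limma). WT also had the widest gap between its 2 embryos in Fos, 0.46 against 0.02 to 0.26 in the mutant genotypes. WT replicate 1 was the highest of the 18 arrays in Fos and in Egr1 and the lowest of the 18 in Junb and in both Jun probe sets.

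Among the AP-1 partners, Fosb, the nearest relative of Fos in the list, had a signal of 2.98 to 3.54 in mutants (median 3.22), against 3.18 and 3.25 in WT. The lowest value of the data was 2.3 and the median probe set lay at 5.8, so Fosb was near the floor and may be background. Its mean difference was 0.00 (SE 0.08, 95% interval -0.17 to 0.17, adjusted p = 1.00 by limma). Its order over genotypes differed from that of Fos: -/- embryos had 3.40 and 3.36, above both WT embryos, and Neo2/- embryos 3.06 and 3.11, below them. The lowest Fosb array was Neo2/+ replicate 2 and the highest Neo2/Neo2 replicate 2, both mutants.

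Jun, the main dimer partner of Fos, had a signal of 8.72 to 9.53 in mutants (median 9.09), against 8.72 and 9.35 in WT. The WT embryos were 0.63 apart, and 3 of the mutant arrays lay above both of them and 0 below. The mean difference was 0.08 (SE 0.12, adjusted p = 0.931 by limma), and its second probe set had 0.09 (SE 0.09). Both probe sets were highest in Neo2/Neo, where the first had 9.51 and 9.53, with differences from WT of 0.48 and 0.41 that did not pass (the first with an adjusted p of 0.625 by limma). Without WT replicate 1 the mean difference of the mutants became -0.23 for the first probe set and -0.07 for the second, so its direction rests on that array.

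Junb, a Jun protein that can restrain Jun, had 5.34 to 5.99 in mutants (median 5.55), against 5.33 and 5.72 in WT, a mean difference of 0.06 (SE 0.14, adjusted p = 0.966 by limma). Its direction too rests on WT replicate 1, without which the difference became -0.13. Atf3, a stress-induced factor that represses many of its targets, had 6.02 to 6.78 in mutants (median 6.42), against 6.06 and 6.34 in WT. It was the highest of the 12 differences, 0.21 (SE 0.10, adjusted p = 0.642 by limma), and 10 of 16 mutant arrays lay above both WT arrays and 1 below. Without WT replicate 1 the Atf3 difference was 0.07. The Atf3 difference was widest on the arrays labelled Neo2/Neo2 (6.78 and 6.76), at 0.57 (SE 0.14, adjusted p = 0.186 by limma), followed by -/- with 0.41 (adjusted p = 0.209 by limma). In both genotypes Fos was below WT, by -0.72 and -0.99.

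Egr1, a zinc finger factor that responds to the same kinases as Fos, came nearest to it. Its signal was 6.34 and 6.83 in -/-, 6.63 and 6.54 in Neo/Neo, 6.82 and 6.47 in Neo2/-, 6.60 and 6.63 in Neo2/Neo, and 6.43 and 6.75 in Neo2/Neo2. It was 6.63 and 6.26 in +/-, 6.61 and 6.61 in Neo/+, 6.37 and 6.48 in Neo2/+, and 6.96 and 6.79 in WT. Of the mutant arrays, 14 of 16 lay below both WT arrays, and the other two, -/- replicate 2 and Neo2/- replicate 1, lay between them. The mean difference was -0.32 (SE 0.13, 95% interval -0.60 to -0.03), with an unadjusted p of 0.0342 by limma, a level that 7.96% of all probe sets reached, and an adjusted p of 0.591. Over the 18 fits without 1 array the Egr1 difference was -0.40 to -0.23.

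Klf4, a zinc finger factor of epithelia and of pluripotent cells, had 4.69 to 5.69 in mutants (median 5.37), against 5.23 and 5.45 in WT, a mean difference of 0.00 (SE 0.13, adjusted p = 0.999 by limma). It was lowest in +/- (5.02 and 4.69), at -0.48 (SE 0.17, adjusted p = 0.409 by limma). The second Klf4 probe set had 0.02 in +/- and 0.03 (SE 0.12) over the mutants, so the probe sets disagreed there.

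Ier2, an early response gene of a short nuclear protein, varied little except on +/- replicate 1. It had 9.51 to 9.96 on 15 mutant arrays, 8.08 on +/- replicate 1, and 9.75 and 9.95 in WT. Over the 18 arrays its range was 1.88, and without the 2 arrays that stood apart it was 0.22, at the 3.1 percentile of such ranges over all probe sets. The +/- difference of -0.90 (SE 0.37, adjusted p = 0.415 by limma) came from that array. When +/- replicate 2 was left out, so that replicate 1 stood alone for +/-, Ier2 was called at -1.77, among 5066 calls on the array. Over the mutants the Ier2 difference was -0.12 (SE 0.27), and without the 2 arrays that stood apart it was 0.02.

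Of the genes that end the response, Zfp36 had 6.03 and 6.04 in -/-, 5.91 and 5.87 in Neo/Neo, 5.82 and 5.81 in Neo2/-, 6.07 and 5.92 in Neo2/Neo, and 5.85 and 6.32 in Neo2/Neo2. It had 5.65 and 5.89 in +/-, 5.78 and 5.72 in Neo/+, 5.83 and 5.63 in Neo2/+, and 6.13 and 6.08 in WT. Of the mutant arrays, 15 of 16 lay below both WT arrays, and Neo2/Neo2 replicate 2 lay above them. The mean difference was -0.22 (SE 0.10, 95% interval -0.44 to 0.01, adjusted p = 0.638 by limma). Dusp1 had 8.17 to 8.62 in mutants (median 8.31), against 8.29 and 8.59 in WT, a difference of -0.10 (SE 0.08, adjusted p = 0.823 by limma). It was highest in Neo2/Neo (8.60 and 8.62), where Jun was highest as well, and without WT replicate 2 its difference over the mutants became 0.05.

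**Figure D3:**
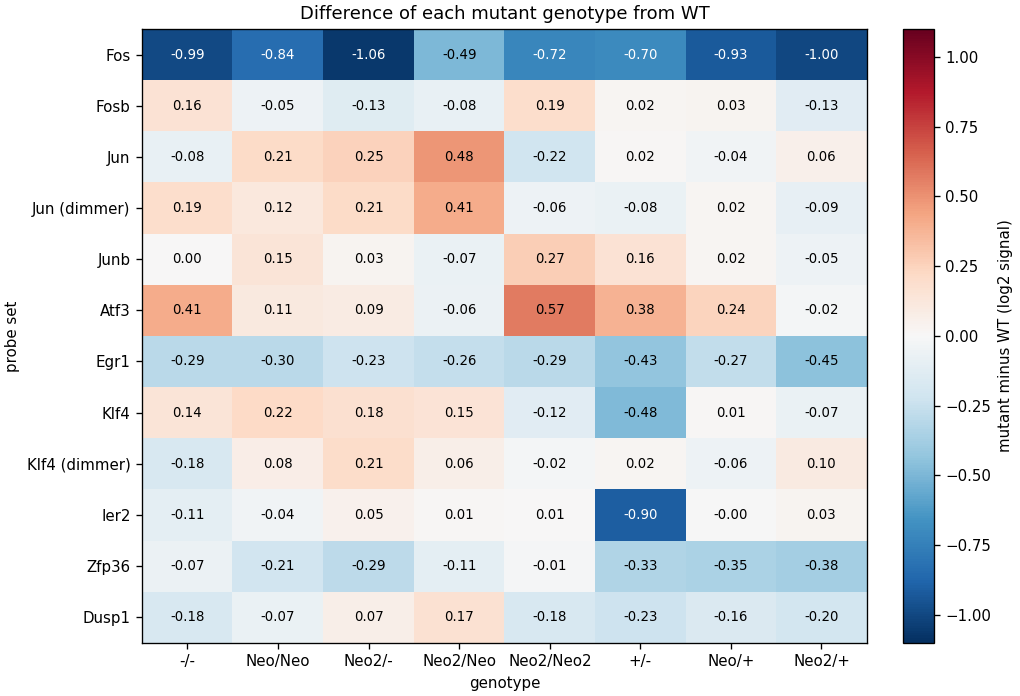
Difference of each mutant genotype from WT (colour and printed number, log2 signal, mutant minus WT) for the 12 probe sets (rows), with the genotypes in columns. Blue is lower and red higher than in WT. The Fos row is blue throughout, from -1.06 in Neo2/- to -0.49 in Neo2/Neo, and Egr1 and Zfp36 are lower in each genotype by less, while the -0.90 of Ier2 in +/- comes from 1 array.

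Taken by genotype means, 3 of the 12 probe sets lay below WT in each of the 8 mutant genotypes, those of Fos, Egr1 and Zfp36, against 10.4% of all probe sets, and 0 lay above WT in each (10.1% of all probe sets). Since the same 2 WT arrays enter each difference, these runs of 8 are not 8 observations. Over the mean of the mutants, 4 of the 9 genes other than Fos were lower and 5 higher, and their median difference was 0.00, against 0.01 over all genes. None of their 11 probe sets was called in any of the 8 comparisons with WT, in the mean of the mutants, between numbers of wild-type alleles, in the slope on Tbx1 or in the F-tests. At an unadjusted p under 0.05 by limma, +/- against WT held 6 of the 12 probe sets, those of Fos, Atf3, Egr1, Klf4, Ier2 and Zfp36, against 11.7% of all probe sets, and 1 of its 2 arrays is among those that stood apart. The 9 genes other than Fos had a median difference of -0.23 in +/-, against 0.04 over all genes. At the same level the F-test between the 9 genotypes held 6 of the 12 probe sets, those of Fos, Jun (both), Atf3, Klf4 and Dusp1, against 13.7% of all probe sets. The F-test among the 8 mutants held the same 6, against 13.8%. Between 0 and 1 wild-type allele, the 9 genes other than Fos were all higher with 0 alleles, by a median of 0.12 against 0.00 over all genes, and none passed. Fos was higher there too, by 0.06, and each of these 2 groups holds 1 of the arrays that stood apart. The smallest p was that of Zfp36 (0.21, SE 0.07, unadjusted p = 0.00752, adjusted p = 0.888 by limma), and 4 of the 12 probe sets had an unadjusted p under 0.05, against 4.53% of all probe sets. Between 1 and 2 wild-type alleles, 6 of the 9 were lower and 3 higher with 1 allele, by a median of -0.18 against 0.01 over all genes. There 3 of the 12 probe sets, those of Fos, Egr1 and Zfp36, had an unadjusted p under 0.05 by limma, against 6.04% of all probe sets. Egr1 differed by -0.38 (adjusted p = 0.691 by limma) and Zfp36 by -0.35 (adjusted p = 0.689 by limma), and neither was called.

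To set the change of Fos beside that of its family, the Fos signal was subtracted from that of each other probe set on each array before the fit. The change of Fos differed from that of all 11 other probe sets of the family, by 0.53 for Egr1 (SE 0.17, adjusted p = 0.00584) up to 1.06 for Atf3 (SE 0.17, adjusted p = 3.725e-05), both by limma. The same held for 98.2% of all probe sets on the array, so the family did not stand out from other genes in this. Zfp36 lay 0.62 above Fos (SE 0.16), Dusp1 0.74 (SE 0.16), Ier2 0.72 (SE 0.28), Fosb 0.84 (SE 0.15) and Jun 0.93 (SE 0.18). This comparison was chosen after seeing the data, and all its differences share the Fos values and the 2 WT arrays. Fos had the second smallest unadjusted p of all probe sets over the mutants by limma, so such calls were likely in advance. They add no support that Fos moved alone.

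Across the 18 arrays, none of the 9 genes was called in a regression on the Fos signal, which called 0.0155% of probe sets. At an unadjusted p under 0.05 by limma, 0 of their 11 probe sets passed, against 9.53% of all probe sets. Zfp36 had the highest correlation with Fos, with Pearson's r of 0.45 (permutation p = 0.0651) and Spearman's rho of 0.47 (permutation p = 0.0525), and an adjusted p of 0.540 by limma over all probe sets. Egr1 followed with r of 0.44 (permutation p = 0.0653), rho of 0.19 (permutation p = 0.456) and the same adjusted p of 0.540 by limma. Of all genes, 5.26% had an r with Fos at least as high as that of Zfp36 and 5.37% at least as high as that of Egr1. The 2 arrays farthest from the median Fos signal were those of WT, and without them r became 0.23 for Zfp36 and -0.07 for Egr1, so the relation of Egr1 with Fos rests on the WT arrays.

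The other genes had lower correlations with Fos over the 18 arrays. They were 0.24 for Dusp1, -0.01 for Fosb, -0.04 for Jun, -0.10 for Klf4 and for Ier2, -0.18 for Junb and -0.31 for Atf3, with permutation p-values of 0.216 to 0.976. In the 16 mutant arrays r was 0.32 for Jun, 0.28 for Dusp1, 0.03 for Fosb, 0.00 for Junb, -0.06 for Atf3, -0.12 for Klf4 and -0.28 for Ier2. Between embryos of 1 genotype, a regression on Fos with genotype means called 0% of probe sets, and no gene of the family passed. At an unadjusted p under 0.05 by limma, 1 of the 11 probe sets passed, that of Junb, against 4.95% of all probe sets. Junb, with the smallest p of them, had a slope of -0.84 (SE 0.37, adjusted p = 0.938 by limma).

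**Figure D4:**
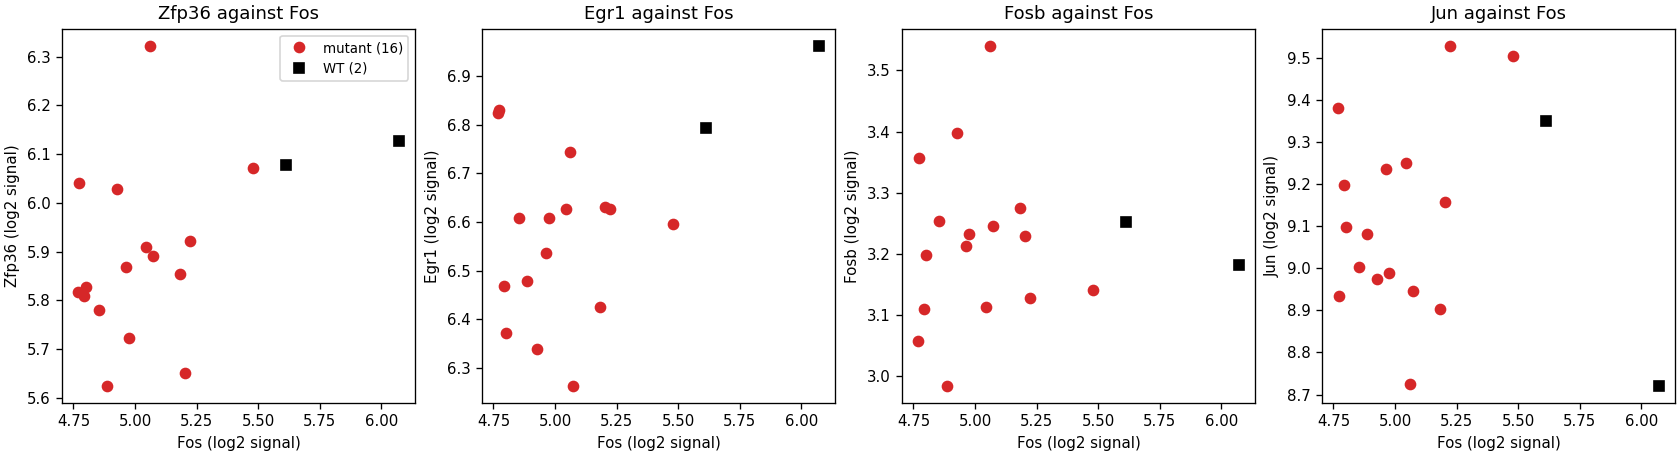
Log2 signal of Zfp36, Egr1, Fosb and Jun (vertical axes) against that of Fos (horizontal axes), with 1 point per array, red circles for the 16 mutant arrays and black squares for the 2 WT arrays. The WT points lie at the right of each panel, at Fos signals of 6.07 and 5.61, and r over the 18 arrays is 0.45, 0.44, -0.01 and -0.04 from left to right.

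Pairs of the 10 genes were then compared. Of the 45 pairs among the 10 genes, 24 had r above 0 and 21 below, and 9 had a permutation p under 0.05 before any adjustment, 6 positive and 3 negative, of which 0 involve Fos. Those 9 pairs, 20% of the 45, had an absolute r of at least 0.484, which each member reached with 3.51% to 25.1% of all genes on the array (median over members 12.4%), so the count of 9 is not read as particular to the family. Fos reached an absolute r of 0.484 with 8.61% of all genes, so the 0 among its 9 pairs is not read as particular to Fos either. The median r was -0.04 over the 9 pairs with Fos and 0.08 over the other 36. The permutations and regressions took each array as independent, and no fit with genotype means was run for pairs without Fos. Atf3, Jun and Dusp1 differed between genotypes at an unadjusted p under 0.05 by limma's F-test. The p-values of their pairs may thus be too small. Fosb and Atf3 correlated with r of 0.78 and rho of 0.81 (permutation p = 0.0001 and 6e-05). In the regressions their adjusted p by limma was 0.0255 on Fosb, which called 1.37% of probe sets, and 0.0147 on Atf3, which called 7.11%. Without the 2 arrays farthest from the median Fosb signal, Neo2/+ replicate 2 and Neo2/Neo2 replicate 2, r was 0.70. Fosb lay near the floor on all arrays, where background and a faint transcript look alike, so its correlations need not be those of a transcript.

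Jun and Dusp1 correlated with r of 0.76 and rho of 0.71 (permutation p = 0.00018 and 0.0016). The adjusted p by limma was 0.0265 in the regression on Jun, which called 2.54% of probe sets, and 0.0599 in that on Dusp1, which called 0.127%. Without both Neo2/Neo arrays r was 0.61. Of all genes, 0.231% had a correlation with Dusp1 at least as strong as that of Jun, and 1.14% had one with Jun as strong as that of Dusp1. For the other pair, 0.203% had a correlation with Fosb at least as strong as that of Atf3, and 1.41% had one with Atf3 as strong as that of Fosb. The negative pairs with an unadjusted permutation p under 0.05 were Fosb with Jun (r = -0.58, p = 0.00983), Jun with Atf3 (r = -0.50, p = 0.0371) and Atf3 with Dusp1 (r = -0.48, p = 0.0422), and none of the 3 passed in the regressions over all probe sets. Fosb with Zfp36 (r = 0.61) and Fosb with Junb (r = 0.50) rest on the 2 farthest arrays, without which r was 0.20 and 0.14.

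**Figure D5:**
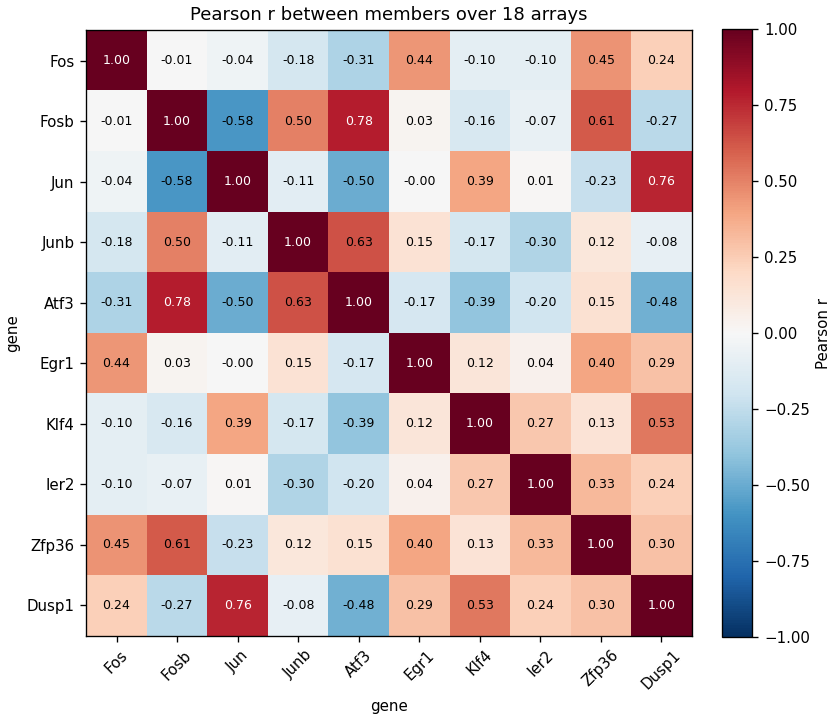
Pearson's r between the 10 genes over the 18 arrays (colour and printed number, from -1 in blue to 1 in red), at the brightest probe set of each gene. The Fos row holds values between -0.31 (Atf3) and 0.45 (Zfp36), while Fosb with Atf3 reaches 0.78 and Jun with Dusp1 0.76.

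The genes whose signal was most like that of Fos over the 18 arrays were none of the family. They were Psg28, a pregnancy-specific glycoprotein gene (r = 0.87, adjusted p = 0.0132 by limma), Baalc (r = 0.85), 2410004P03Rik (r = 0.85, adjusted p = 0.0399 by limma), 9630002D21Rik (r = 0.83) and Ccdc22 (r = 0.81). The most opposite were Iqcg (r = -0.84), Donson, a gene of DNA replication (r = -0.81), and Gk5 (r = -0.78), and Psg28 and 2410004P03Rik were the only 2 of these 8 called. Psg28 had 5.06 to 5.78 in mutants, against 5.82 and 7.44 in WT, and its r with Fos was 0.66 in the 16 mutant arrays. Baalc had 5.89 to 6.25 in mutants, against 6.45 and 6.59 in WT, and its r was 0.53 in the mutant arrays. Neither was called between mutants and WT (adjusted p = 0.353 and 0.294 by limma). In the mutant arrays r was also 0.53 for 2410004P03Rik, 0.51 for 9630002D21Rik and 0.45 for Ccdc22. It was -0.74 for Iqcg, -0.57 for Donson and -0.38 for Gk5 there, so these likenesses to Fos rest in part on the WT arrays.

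Beyond the family, 62 other early response genes were read from 4 lists: AP-1 and ATF relatives, other transcription factors, signal brakes and RNA decay factors, and secreted or effector proteins. None was called over the mutants, in -/- or in any other genotype against WT. At an unadjusted p under 0.05 by limma over the mutants, 4 were higher and 2 lower, against 7.71% of all genes, and their median difference was 0.03, against 0.01 over all genes. Atf4, the factor of the integrated stress response, had 10.81 to 11.08 in mutants, against 11.12 and 11.23 in WT (difference -0.18, adjusted p = 0.566 by limma), and the orphan nuclear receptor gene Nr4a3 had 6.35 to 6.74, against 6.71 and 6.94 (difference -0.26). Those on the higher side were Cebpd (0.41), Jdp2, which can take the place of Fos in a dimer with Jun (0.34), Klf10 (0.33) and the growth factor gene Hbegf (0.30). These had adjusted p-values of 0.457 to 0.621 by limma, and Nr4a3, Jdp2, Klf10 and Hbegf overlapped between mutants and WT. In the regression on the Fos signal 0 genes of these lists were called. At an unadjusted p under 0.05 by limma stood 3 of 11 AP-1 and ATF relatives and 2 of 18 other transcription factors. The signal brakes held 0 of 18 and the effectors 1 of 15, against 1716 of 18193 among all genes. The r with Fos was 0.60 for Fosl2, 0.57 for Atf4, -0.39 for Jdp2, -0.54 for Batf3 and -0.69 for Cebpd.

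The kinases and factors upstream of Fos, heat shock and oxidative stress genes, hypoxia genes and p53 targets gave no call either. With the 4 lists above they make 109 measured genes, of which 0 were called over the mutants or in -/-, by limma. At an unadjusted p under 0.05 by limma over the mutants, 869 of all 18193 genes were higher and 533 lower. At that level stood the SRF cofactor gene Elk3 (0.23), 1 of 14 upstream genes, and the oxygen-sensing hydroxylase gene Egln3 (0.37), 1 of 12 hypoxia genes. The p53 targets Ccng1 (0.32) and Eda2r (0.30), 2 of 9, stood there too, and all of these list genes were higher. Their list means had correlations with Fos over the 18 arrays of -0.25, -0.46, -0.33 and -0.53, given here as a description. The summed linear signal of p53 targets was 3029 to 3605 in mutants and 2997 to 3032 in WT, and that of heat shock and oxidative stress genes 42840 to 50750 in mutants and 44340 to 45850 in WT, so both overlapped.

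Markers of other cell types were read beside Fos. Of the 5 primitive erythroid markers used, 0 were called by limma and 1, Epb42 (-0.46), had an unadjusted p under 0.05, against 7.71% of all genes. The summed linear signal of these markers was 45740 to 62820 in mutants and 58410 to 60840 in WT. The list mean had an r of 0.44 with Fos over the 18 arrays, as high as that of Egr1. The sums of the 6 macrophage and platelet markers (278 to 674 in mutants, 519 to 678 in WT), of the 7 yolk sac endoderm markers (450 to 3544 in mutants, 1268 to 1755 in WT), of the 6 neuronal markers (1440 to 4633 in mutants, 2894 to 2933 in WT) and of the 5 endothelial markers (1080 to 1429 in mutants, 1276 to 1333 in WT) overlapped as well. Of the 6 macrophage and platelet markers, Cd68 (0.44) was higher and Adgre1 (-0.30) lower in mutants at an unadjusted p under 0.05 by limma, a level that 7.71% of all genes reached. Neither was called (adjusted p = 0.457 and 0.498 by limma). The 6 markers of maternal decidua and uterus summed to 380 to 530 in mutants and 438 to 440 in WT. On the RMA scale no marker reads 0, and the part of these cell types in the Fos difference was not tested.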

How the data were processed

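The deposited values are log2 probe set signals of the authors, for which the submitters' processing notes name RMA and affy, with versions not given in the sources used. RMA corrects background, equalises arrays by quantile normalization and summarises probes by median polish. They were used without rescaling or filter. Symbols came from the platform annotation (34945 probe sets with 1 symbol, 932 with several, 9160 with none), and a gene stands by its brightest probe set. The number of arrays limits the precision, and no pair of arrays correlated above 0.997.

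Differences were tested two-sided with limma 3.58.1 in R 4.3.3 (lmFit, eBayes without trend), with p-values adjusted by Benjamini-Hochberg over the whole array and a threshold of 0.05. The fit with 9 genotype means left 9 residual degrees of freedom with 3.63 prior ones, and that with 3 means by wild-type alleles left 15. SE is limma's moderated standard error. Correlations used 100000 permutations, adjusted through limma regressions over all probe sets. Apart from the regression on Fos with genotype means, these took embryos of the same genotype as independent. Their p-values may be too small where a gene differs between genotypes. Alternatives left out arrays or added a replicate block, array weights, sex, an intensity trend or median centring. The scripts were tested on simulated data. Promoter windows are RefSeq's.

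Same-numbered embryos do not pair: in 36 pairs of genotypes their deviations correlated at -0.26 to 0.19, over 0.1 in 9. The 10 genes and their probe sets are always named, with up to 4 genes per list by smallest p over the mutants and the 5 genes most like and 3 most unlike Fos. Of the lists, those with an unadjusted p under 0.05 are given for early response genes. The members and lists were chosen with earlier results of these data known.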

Additional observations from a re-analysis of the deposited data

Results flagged for a closer look

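Values far from the other arrays with the same number of wild-type alleles were looked for in the 10 genes and their further probe sets, in 24 groups of arrays, and 4 were found, where chance alone would give about 1 in 20 groups. Ier2 had 9.51 on -/- replicate 1, the lowest of the 10 arrays with 0 wild-type alleles, where the others had 9.78 to 9.96. Ier2 had 8.08 on +/- replicate 1, the lowest of the 6 arrays with 1 wild-type allele, where the others had 9.80 to 9.89. Both arrays are the ones that stood apart over all probe sets. Zfp36 had 6.32 on Neo2/Neo2 replicate 2, the highest of 10, where the others had 5.81 to 6.07. That array was also the highest of the 18 in Fosb and in Junb. Fosb had 2.98 on Neo2/+ replicate 2, the lowest of 6, where the others had 3.20 to 3.25. Fos itself had no such array.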

How the results depend on the processing

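The direction of Fos against WT was the same in each genotype and in their mean under all alternatives run. With all 16 mutant arrays below both WT arrays, leaving out an array could not turn it. The replicate block, array weights and intensity trend left the difference of each genotype as it was, so the shared direction is not a test of these settings. In -/- the difference of -0.99 no longer passed with array weights (adjusted p = 0.638), sex as a covariate (0.0596) or only the -/- and WT arrays (0.649), by limma. Neo/Neo passed without both arrays that stood apart (-0.84, adjusted p = 0.0374), with a replicate block (-0.84, 0.0481), array weights (-0.84, 0.0170) and median centring (-0.83, 0.0438). Neo/+ passed without both arrays (-0.93, 0.0301), with array weights (-0.93, 0.0199) and median centring (-0.89, 0.0446), and Neo2/Neo2 passed without both arrays (-0.72, 0.0352). The mean of the mutants passed without both arrays (-0.86, 0.0313), with the replicate block (-0.84, 0.0497) and median centring (-0.82, 0.0462). Its adjusted p was 0.166 in a fit of 2 means. The block changed no other call. The F-test between 9 genotypes no longer passed with an intensity trend (adjusted p = 0.0580) or sex (0.0814). Where not named in this section, the cause of a changed call was not tested.

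Leaving out each array in turn gave Fos differences of -1.22 to -0.76 in -/-, -1.07 to -0.61 in Neo/Neo, -1.29 to -0.83 in Neo2/-, -0.72 to -0.26 in Neo2/Neo, -0.95 to -0.49 in Neo2/Neo2, -0.93 to -0.47 in +/-, -1.16 to -0.70 in Neo/+, -1.23 to -0.77 in Neo2/+, -1.07 to -0.61 over the mutants and -1.11 to -0.65 between 1 and 2 wild-type alleles. The adjusted p of the 9-genotype F-test was 0.00414 to 0.117. Directions of differences near 0 turned: over the same fits those over the mutants ran from -0.036 to 0.036 for Fosb, -0.23 to 0.40 for Jun, -0.074 to 0.26 for its second probe set, -0.13 to 0.26 for Junb, -0.11 to 0.11 for Klf4, -0.17 to 0.22 for its second probe set and -0.24 to 0.046 for Dusp1. Without both arrays that stood apart Fosb became -0.0012, Klf4 -0.042 and Ier2 0.016. With sex as a covariate Klf4 became -0.042 and its second probe set -0.011. The slope of Egr1 on Fos became -0.055 in the 16 mutant arrays. Leaving out 1 array gave 0 to 1 calls among the probe sets of the other 9 genes in +/- and in both F-tests, that of Ier2 without +/- replicate 2, and 0 in the other comparisons. With array weights 2 were called among the 8 mutants, both of Jun. A filter on dim probe sets gave no value for Fos, whose mean is below the median probe set.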
